A study of Danio rerio with 9 samples.

Results

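The genes described here are 10 transcription factor genes that pattern the neural tube, namely the homeobox genes *pax3a*, *pax6a*, *pax6b*, *pax7a*, *pax7b*, *dbx1a*, *nkx6.1* and *irx3a* and the basic helix-loop-helix genes *olig2* and *olig3*. They were chosen by name from the 32020 lines of a zebrafish gene count table, and all 10 had a line. RNA was sequenced from 3 samples each of wild-type tailbuds, tg(*hsp70l:tbx16*) tailbuds and tg(*hsp70l:msgn1*) tailbuds, called the *tbx16* line and the *msgn1* line below. Every group, wild type included, was heat-shocked for 30 min at 2 to 3 somites and left for 3 h, and each sample pooled 10 tailbuds cut just behind the newest somite. The heat-shock temperature in the sample labels differs from that in the study's methods and is not given here. The *hsp70l* promoter responds to heat in most cells, so the transgenes were not limited to a tissue. The wild-type controls were siblings of the *msgn1* line without the transgene, whereas the *tbx16*-line embryos came from homozygotes crossed to wild type. Parentage and transgene therefore cannot be told apart wherever the *tbx16* line is compared.

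As background, progenitors of the spinal cord are ordered along the dorsoventral axis of the neural tube by opposing signals, BMP and Wnt from the dorsal side and Sonic hedgehog from the ventral side. Each progenitor domain is marked by a combination of homeodomain and basic helix-loop-helix proteins, and many of these proteins repress the gene of the neighbouring domain. In the zebrafish tailbud, neuromesodermal progenitors (NMPs) give rise both to spinal cord and to the mesoderm of the somites. Tbx16, a T-box protein, and Msgn1, a basic helix-loop-helix protein, act in the cells that leave for the mesoderm. The comparisons ask how genes of the neural side read when either mesodermal factor is raised by heat shock.

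Counts summed to between 30750552 and 49654769 per sample, and levels are given as CPM, that is counts scaled to a common library total after TMM scaling for library composition. At the shallowest sample, *msgn1*-line replicate 1, 1 CPM stood for about 30.8 counts before TMM scaling and for fewer after it. For example, 73 counts of *pax7b* in that sample were 2.94 CPM. The targeted genes followed their labels. *tbx16* was at 332 to 372 CPM in wild type and 564 to 976 CPM in the *tbx16* line, and *msgn1* was at 701 to 889 CPM in wild type and 1428 to 1958 CPM in the *msgn1* line, with reads of transgene and endogenous gene not separated. In the *tbx16* line *msgn1* was lower than wild type, at 350 to 585 CPM (log2 fold change −0.75, SE 0.20, edgeR adjusted p = 0.0175). In the *msgn1* line *tbx16* was at 263 to 350 CPM and not called (edgeR adjusted p = 0.678). The part of lower *msgn1* in the *tbx16*-line results was not tested. All 13 listed markers of tailbud mesoderm progenitors and all 16 listed panneural progenitor markers had counts in every genotype. From a list of brain and eye genes, 10 forebrain and eye genes were picked after their values were seen. Their summed levels were 33.0 CPM in replicate 1 of the *tbx16* line and 34.5 CPM in replicate 3 of the *msgn1* line. The other samples were at 4.16 to 10.3 CPM. Without that *tbx16*-line sample, 3 patterning genes in place of 5 were called against wild type in the *tbx16* line. Without that *msgn1*-line sample, 1 in place of 3 was called in the *msgn1* line. The same numbers came when certain other samples were left out, as given below. The replicate numbers name separate pools, and 3 samples against 3 cannot give an exact permutation p below 0.1 for a single gene, so each p rests on the spread that edgeR shares across genes.

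Of the 10 genes, 9 passed the filter on low counts and were tested. *pax7a*, a paired-box gene of the dorsal neural tube, had 0 counts in all 9 samples, and no fold change was computed. A 0 in a single sample, taken alone, allows an expected count of up to 3 for the gene model that was counted. Whether that model covers the *pax7a* transcript was not checked. In the *tbx16* line 5 of the 9 tested genes were lower than wild type and 0 were higher by edgeR's quasi-likelihood test, where a gene is called at a Benjamini-Hochberg adjusted p under 0.05 over all 19914 tested genes. The called genes were *pax3a*, *pax7b*, *olig3*, *pax6a* and *nkx6.1*. At an unadjusted p under 0.05 and by DESeq2 the numbers were likewise 0 higher and 5 lower. Over all tested genes 30.7% were called in this comparison, 15.7% lower and 15.0% higher. The median log2 fold change of the 9 genes was −0.65, and that of all tested genes was 0.03. Without wild-type replicate 1 or 2, or without *tbx16*-line replicate 1 or 2, the count fell from 5 to 3.

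In the *msgn1* line 3 of the 9 genes were called against wild type by the same edgeR test. *olig2* and *olig3* were higher and *pax6b* was lower. Over all tested genes 0.854% were called, 0.357% higher and 0.497% lower. At an unadjusted p under 0.05 4 were higher and 2 lower, and DESeq2 called 2 higher and 1 lower. The median log2 fold change was −0.22 for the 9 genes and −0.02 for all tested genes. The count fell to 1, *pax6b*, when any wild-type sample, *msgn1*-line replicate 1 or 3, or *tbx16*-line replicate 2 was left out.

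Set directly against each other, the *tbx16* and *msgn1* lines differed in 8 of the 9 genes. *pax3a*, *pax7b*, *olig3*, *dbx1a*, *pax6a* and *olig2* were lower in the *tbx16* line, *irx3a* and *pax6b* were higher there, and *nkx6.1* was not called. Of all tested genes 38.3% were called between the lines, 18.5% higher and 19.8% lower in the *tbx16* line. The median log2 fold change was −1.38 for the 9 genes and 0.05 for all tested genes. The 3 comparisons share samples, so they are not independent of each other.

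**Figure D1:**
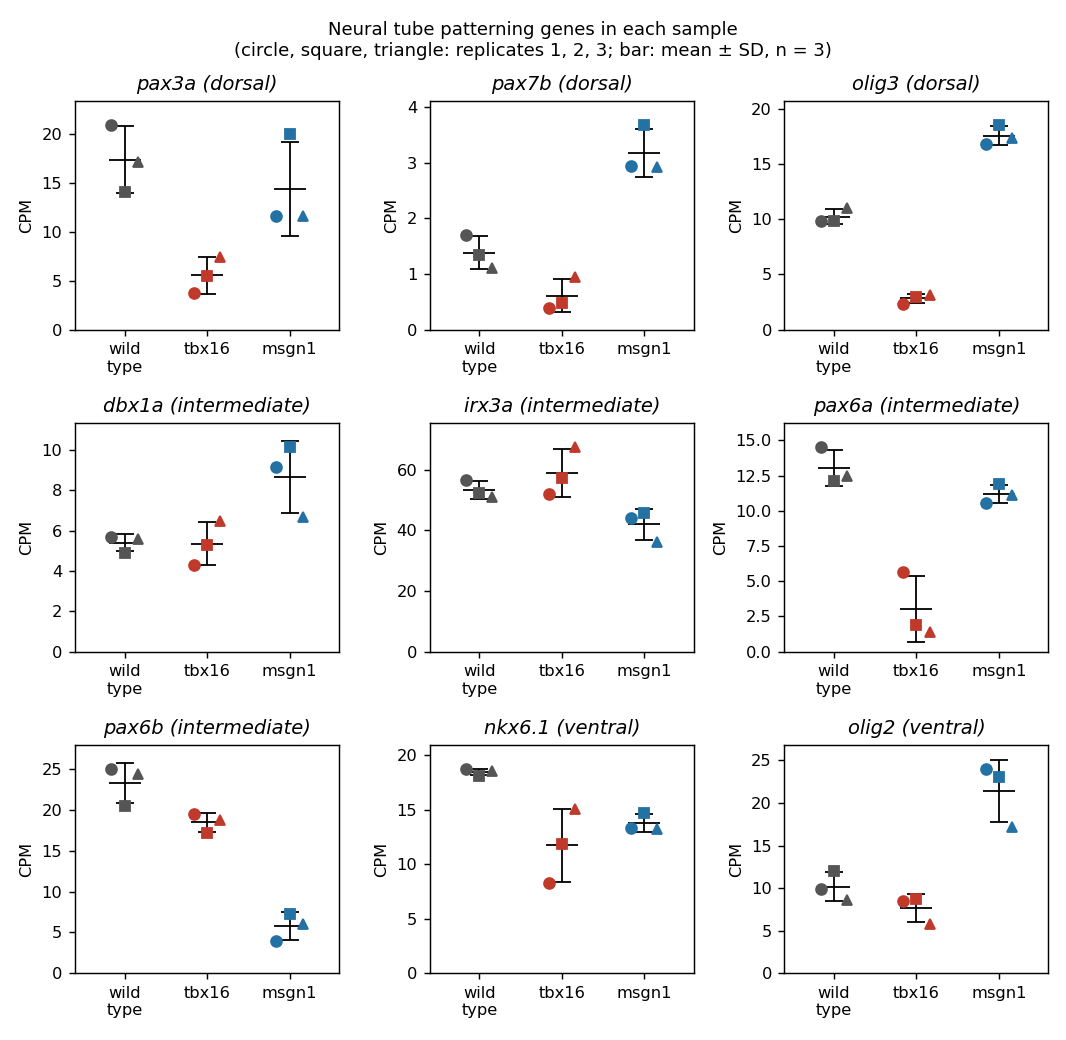
Level of each of the 9 detected genes (vertical axes, CPM from 0) in each sample of wild type, the *tbx16* line and the *msgn1* line, with the mean ± SD of 3 samples. *olig3* is lowest in the *tbx16* line (2.35 to 3.13 CPM) and highest in the *msgn1* line (16.8 to 18.5 CPM), whereas *pax6b* is lowest in the *msgn1* line (3.95 to 7.29 CPM).

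The dorsal genes *pax3a*, *pax7b* and *olig3* were all lower in the *tbx16* line than in wild type. *pax3a* encodes a paired-box homeodomain protein of dorsal neural progenitors that is also made in neural crest precursors and in the dermomyotome. It was at 20.9, 14.1 and 17.1 CPM in the wild-type samples, 3.73, 5.47 and 7.46 CPM in the *tbx16* line and 11.7, 20.0 and 11.6 CPM in the *msgn1* line. Every *tbx16*-line sample lay below every other sample, while the wild-type and *msgn1*-line ranges overlapped. Against wild type *pax3a* had a log2 fold change of −1.64 in the *tbx16* line (SE 0.29, edgeR adjusted p = 0.00241), a level 3.13-fold lower. The corresponding value in the *msgn1* line was −0.27 (SE 0.29, 95% interval −0.90 to 0.37, edgeR adjusted p = 0.716). Between the lines *pax3a* differed by −1.38 (SE 0.29, edgeR adjusted p = 0.00511). The calls for *pax3a* held with each sample left out in turn.

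*pax7b*, the second *pax7* gene of zebrafish and the only one with reads here, is known from dorsal neural progenitors, neural crest and muscle precursors. It was close to the limit of counting, with 18 to 133 counts in a sample. Its level was 1.71, 1.34 and 1.11 CPM in wild type, 0.395, 0.482 and 0.955 CPM in the *tbx16* line and 2.94, 3.67 and 2.92 CPM in the *msgn1* line. No ranges overlapped, and the order was *tbx16* line, wild type, *msgn1* line. The log2 fold change in the *tbx16* line was −1.18 (SE 0.37, edgeR adjusted p = 0.0325). This *pax7b* call was lost without wild-type replicate 1 (adjusted p = 0.116 by edgeR) or 2 (0.0676), or without *tbx16*-line replicate 1 (0.0988) or 2 (0.113). It was also lost with scaling by library size alone (0.0621) and in a fit of wild type and the *tbx16* line only (0.0508). *pax7b* had a log2 fold change of 1.19 in the *msgn1* line (SE 0.35, 95% interval 0.41 to 1.98), and with an edgeR adjusted p of 0.195 it did not pass the test. The lines differed by −2.38 (SE 0.37, edgeR adjusted p = 0.00097), that is 5.20-fold.

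*olig3*, which marks the dorsalmost spinal progenitors, moved in both lines and in opposite directions. It was at 9.82, 9.84 and 11.0 CPM in wild type. In the *tbx16* line *olig3* was at 2.35, 3.00 and 3.13 CPM, and in the *msgn1* line at 16.8, 18.5 and 17.4 CPM. The 3 genotypes did not overlap and each was tight, with SDs of 0.684, 0.420 and 0.861 CPM. Against wild type the log2 fold change of *olig3* was −1.85 in the *tbx16* line (SE 0.16, edgeR adjusted p = 3.3e-05) and 0.78 in the *msgn1* line (SE 0.15, edgeR adjusted p = 0.0466). The fall in the *tbx16* line was 3.61-fold and held with each sample left out. The rise in the *msgn1* line was 1.72-fold and lay near the threshold. It was lost without any of the wild-type samples (edgeR adjusted p = 0.123 to 0.224), without *msgn1*-line replicate 1 or 3 (0.112 and 0.113), and without *tbx16*-line replicate 2 or 3 (0.0714 and 0.0543). It was lost as well with scaling by library size alone (0.184) and with no filter on low counts (0.0594). Between the lines *olig3* differed by −2.63 (SE 0.16, edgeR adjusted p = 5e-06), 6.21-fold, the widest gap of the 9 genes.

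Among the intermediate genes, *pax6a* was called lower in the *tbx16* line and *pax6b* in the *msgn1* line. Both encode the paired-box homeodomain protein Pax6, which in mouse and chick is made in intermediate spinal progenitors and, across vertebrates, in the eye and forebrain. *pax6a* was at 14.5, 12.2 and 12.5 CPM in wild type, 5.68, 1.91 and 1.38 CPM in the *tbx16* line and 10.6, 11.9 and 11.2 CPM in the *msgn1* line. All *tbx16*-line samples were below the others, with replicate 1 of that line well above its other 2 replicates. The log2 fold change of *pax6a* in the *tbx16* line was −2.13 (SE 0.43, edgeR adjusted p = 0.0044), or 4.37-fold lower, and it was −2.97 without *tbx16*-line replicate 1. The *msgn1*-line samples of *pax6a* lay just below wild type without overlap, at a log2 fold change of −0.22 (SE 0.41, 95% interval −1.12 to 0.68, edgeR adjusted p = 0.847). The *tbx16* line was lower than the *msgn1* line by −1.91 (SE 0.42, edgeR adjusted p = 0.00637), and by −2.75 without *tbx16*-line replicate 1.

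*pax6b* showed the other pattern. It was at 25.0, 20.4 and 24.3 CPM in wild type, 19.4, 17.2 and 18.8 CPM in the *tbx16* line and 3.95, 7.29 and 6.08 CPM in the *msgn1* line. The *msgn1*-line samples stood far below all others, and the *tbx16*-line samples lay below wild type by a narrow margin. The log2 fold change in the *msgn1* line was −2.00 (SE 0.21, edgeR adjusted p = 0.00312), 4.01-fold lower, and this was the only call of the 9 genes against wild type in that line that held with each sample left out in turn. In the *tbx16* line *pax6b* had a log2 fold change of −0.33 (SE 0.20, 95% interval −0.77 to 0.10, edgeR adjusted p = 0.227). The *tbx16* line was higher than the *msgn1* line by 1.67 on the log2 scale (SE 0.20, edgeR adjusted p = 0.000263).

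*dbx1a* encodes a homeodomain protein of progenitors at the middle of the dorsoventral axis, which in mouse and zebrafish give rise to commissural interneurons. Its level was 5.70, 4.91 and 5.58 CPM in wild type, 4.30, 5.29 and 6.46 CPM in the *tbx16* line and 9.15, 10.1 and 6.65 CPM in the *msgn1* line. The *tbx16*-line range enclosed the wild-type range, and the *msgn1*-line samples lay above both. *dbx1a* had a log2 fold change of −0.01 in the *tbx16* line (SE 0.21, 95% interval −0.49 to 0.46, edgeR adjusted p = 0.971), a value with no stable sign. It was 0.68 in the *msgn1* line (SE 0.21, 95% interval 0.20 to 1.16, edgeR adjusted p = 0.225). The *tbx16* line was lower than the *msgn1* line by −0.69 (SE 0.21, edgeR adjusted p = 0.0279). That *dbx1a* call was lost without *tbx16*-line replicate 1 (edgeR adjusted p = 0.103) or 2 (0.0799) and without *msgn1*-line replicate 1 (0.0719) or 2 (0.0819), with scaling by library size alone (0.227) and in a fit of the 2 lines only (0.053).

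*irx3a*, an Iroquois gene whose chick counterpart opposes Olig2 at the upper border of the motor neuron domain, varied little. It was at 56.6, 52.2 and 51.1 CPM in wild type, 51.9, 57.4 and 67.4 CPM in the *tbx16* line and 44.1, 45.7 and 36.2 CPM in the *msgn1* line. Wild type and the *tbx16* line overlapped, and the *msgn1*-line samples lay below both. The log2 fold changes of *irx3a* against wild type were 0.14 in the *tbx16* line (SE 0.13, 95% interval −0.14 to 0.43, edgeR adjusted p = 0.433) and −0.34 in the *msgn1* line (SE 0.13, 95% interval −0.63 to −0.06, edgeR adjusted p = 0.286). Neither was called, whereas the lines differed by 0.49 (SE 0.13, edgeR adjusted p = 0.0145). The difference between the lines was not called without *tbx16*-line replicate 3, the highest *irx3a* sample (edgeR adjusted p = 0.0613).

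The ventral genes *nkx6.1* and *olig2* also differed in pattern. *nkx6.1* encodes a homeodomain protein of ventral progenitors that lies upstream of motor neuron formation in mouse. It was at 18.7, 18.1 and 18.5 CPM in wild type, 8.31, 11.8 and 15.1 CPM in the *tbx16* line and 13.3, 14.7 and 13.2 CPM in the *msgn1* line. Samples of both lines lay below the narrow wild-type range, and the lines overlapped each other. *nkx6.1* had a log2 fold change of −0.65 in the *tbx16* line (SE 0.19, edgeR adjusted p = 0.026) and −0.42 in the *msgn1* line (SE 0.19, 95% interval −0.85 to 0.0028, edgeR adjusted p = 0.357). The *tbx16*-line call was lost without any of the wild-type samples (edgeR adjusted p = 0.0603 to 0.0748) and without *tbx16*-line replicate 1 (0.0598) or 2 (0.074), and also with scaling by library size alone (0.0843). The lines differed by −0.23 (SE 0.19, 95% interval −0.66 to 0.19, edgeR adjusted p = 0.363), so no difference in *nkx6.1* between them was detected.

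*olig2*, which marks progenitors of motor neurons and later of oligodendrocytes, was higher in the *msgn1* line. It was at 9.87, 12.0 and 8.61 CPM in wild type, 8.49, 8.75 and 5.75 CPM in the *tbx16* line and 24.0, 23.0 and 17.2 CPM in the *msgn1* line. All *msgn1*-line samples were above all others, and the ranges of wild type and the *tbx16* line overlapped. The log2 fold change of *olig2* in the *msgn1* line was 1.07 (SE 0.21, edgeR adjusted p = 0.0484), a 2.10-fold rise at the edge of the threshold. The call was lost without any of the wild-type samples (edgeR adjusted p = 0.103 to 0.206), without *msgn1*-line replicate 1 or 3 (0.159 and 0.0564) and without *tbx16*-line replicate 1 or 2 (0.0745 and 0.0767). It was also lost with scaling by library size alone (0.118) and in a fit of wild type and the *msgn1* line only (0.0523). In the *tbx16* line *olig2* had a log2 fold change of −0.41 (SE 0.21, 95% interval −0.87 to 0.06, edgeR adjusted p = 0.168). Between the lines *olig2* differed by −1.48 (SE 0.21, edgeR adjusted p = 0.000605), and that call held with each sample left out.

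**Figure D2:**
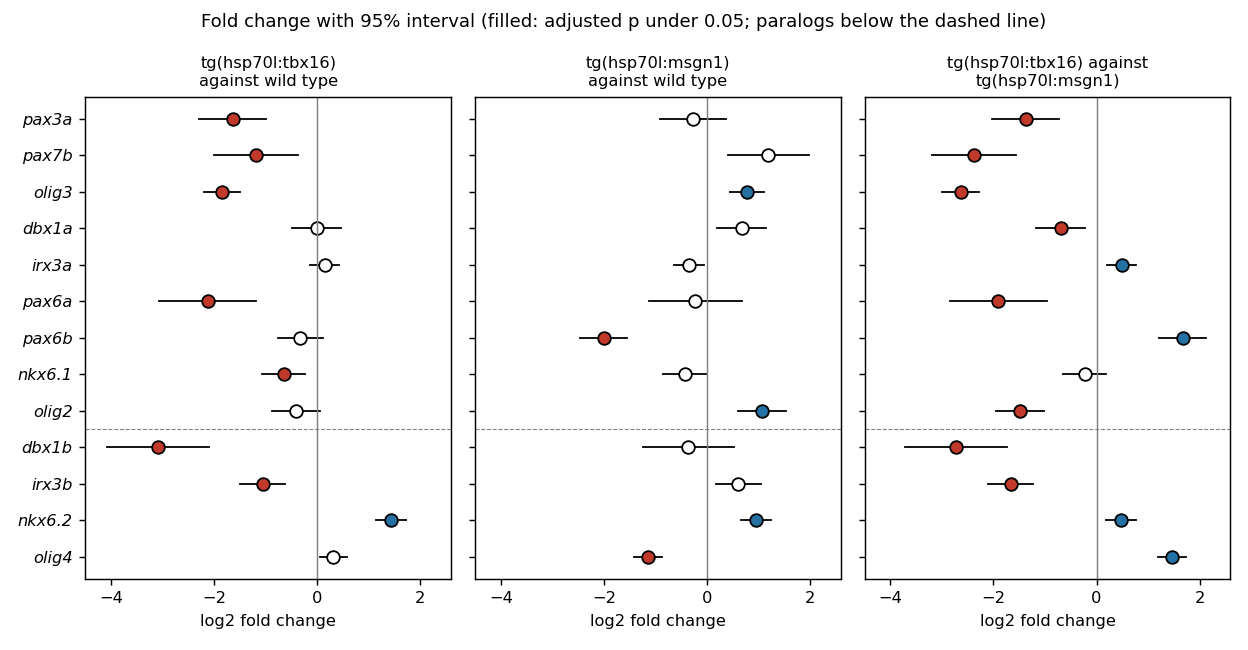
Log2 fold change (horizontal axes) with its 95% interval for the 9 tested genes and, below the dashed line, 4 paralogs, in the 3 comparisons. Filled points were called by edgeR at an adjusted p under 0.05. *olig3* lies at −1.85 in the *tbx16* line and 0.78 in the *msgn1* line, and *pax6b* at −0.33 and −2.00.

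Paralogs of these genes did not always carry the call of the member they resemble. Of 8 paralogs listed, 7 had a line in the table and 5 were tested. *nkx6.3* had 0 counts in every sample, *olig1* had 0 to 7 counts, and *pax3b* had 0 to 19 counts and was called in no comparison by edgeR. *nkx6.2*, a close relative of *nkx6.1* that also acts in ventral progenitors, was at 26.5, 26.3 and 20.6 CPM in wild type, 60.4, 72.0 and 65.0 CPM in the *tbx16* line and 45.9, 51.8 and 43.8 CPM in the *msgn1* line. The genotypes did not overlap, and *nkx6.2* was higher in both lines, by a log2 fold change of 1.43 (SE 0.13, edgeR adjusted p = 5.2e-05) and 0.95 (SE 0.13, edgeR adjusted p = 0.00929). The second call was lost without wild-type replicate 1 (edgeR adjusted p = 0.0502 for *nkx6.2*). Its relative *nkx6.1* was below wild type in every sample of both lines.

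*olig4*, a further *olig* gene, was at 54.8, 57.6 and 48.0 CPM in wild type, 56.5, 71.3 and 71.7 CPM in the *tbx16* line and 25.2, 23.9 and 23.4 CPM in the *msgn1* line. Its log2 fold change was −1.15 in the *msgn1* line (SE 0.12, edgeR adjusted p = 0.00369), where *olig2* and *olig3* rose. In the *tbx16* line the log2 fold change of *olig4* was 0.31 (SE 0.12, edgeR adjusted p = 0.0739), and it passed the test only without *tbx16*-line replicate 1 (edgeR adjusted p = 0.0273) among the samples left out.

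*dbx1b*, the relative of *dbx1a*, was at 2.10, 1.61 and 2.94 CPM in wild type, 0.132, 0.286 and 0.355 CPM in the *tbx16* line, from 6 to 16 counts, and 1.81, 2.21 and 1.15 CPM in the *msgn1* line. It was 8.49-fold lower in the *tbx16* line than in wild type (log2 fold change −3.09, SE 0.44, edgeR adjusted p = 0.000711), whereas *dbx1a* was not called there. *irx3b* was at 18.1, 16.4 and 21.0 CPM in wild type, 7.66, 8.29 and 10.7 CPM in the *tbx16* line and 21.8, 34.7 and 28.2 CPM in the *msgn1* line. Its log2 fold change was −1.06 in the *tbx16* line (SE 0.20, edgeR adjusted p = 0.00308) and 0.61 in the *msgn1* line (SE 0.19, edgeR adjusted p = 0.227). So *irx3b* and *dbx1b* were called in the *tbx16* line and *irx3a* and *dbx1a* were not. The difference between paralogs was not tested.

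A ratio of 2 genes taken within a sample does not depend on the scaling between samples. The 6 pairs were picked with these values in view, the counts were not divided by transcript length, and no test was made. Only the change of a ratio between genotypes can be read. The ratio of *pax6b* to *pax6a* counts was 1.68 to 1.95 in wild type, 3.42 to 13.6 in the *tbx16* line and 0.374 to 0.614 in the *msgn1* line, so it moved up in one line and down in the other. The same held for *olig4* to *olig3*, at 4.36 to 5.85 in wild type, 22.9 to 24.1 in the *tbx16* line and 1.29 to 1.50 in the *msgn1* line. The *irx3a* to *irx3b* ratio also moved up in the *tbx16* line (6.29 to 6.92) and down in the *msgn1* line (1.28 to 2.02) from 2.44 to 3.19 in wild type. The ratio of *nkx6.2* to *nkx6.1*, by contrast, was above wild type (1.11 to 1.45) in both the *tbx16* line (4.32 to 7.26) and the *msgn1* line (3.31 to 3.51). So was that of *dbx1a* to *dbx1b*, at 1.90 to 3.05 in wild type, 18.2 to 32.7 in the *tbx16* line and 4.59 to 5.76 in the *msgn1* line. The ratio of *olig2* to *olig3* was 0.782 to 1.22 in wild type and 1.84 to 3.62 in the *tbx16* line, and its range of 0.991 to 1.43 in the *msgn1* line overlapped wild type.

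**Figure D3:**
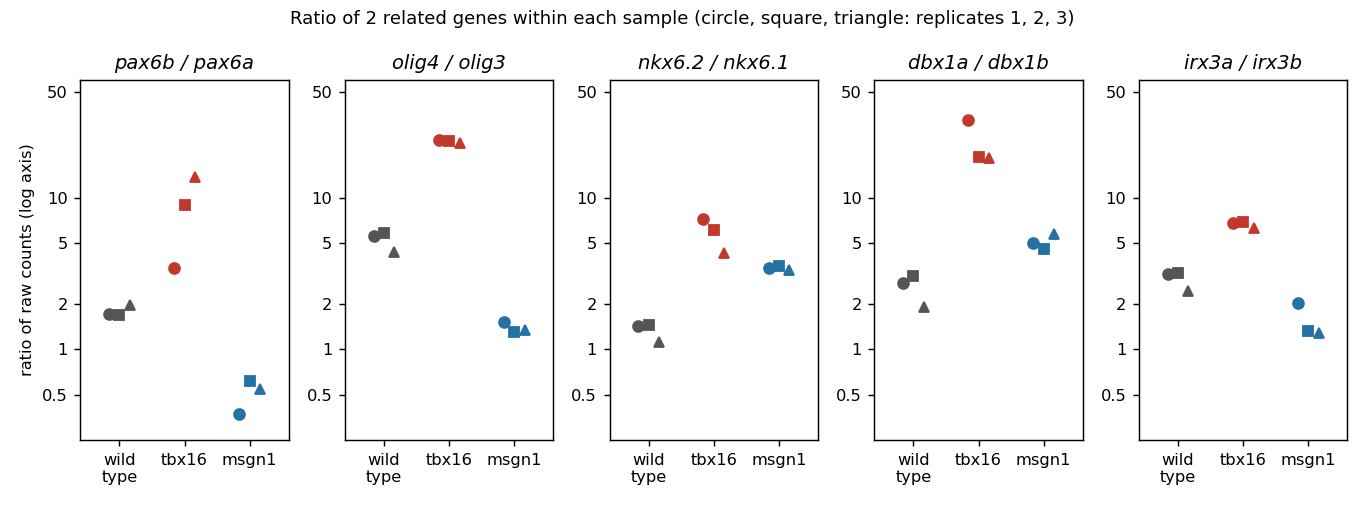
Ratio of raw counts of 2 related genes within each sample (vertical axis, log scale) in wild type, the *tbx16* line and the *msgn1* line. *pax6b* / *pax6a* rises from 1.68 to 1.95 in wild type to 3.42 to 13.6 in the *tbx16* line and drops to 0.374 to 0.614 in the *msgn1* line, while *nkx6.2* / *nkx6.1* is higher in both lines.

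Reads of overlapping genes could enter these counts, and whether strand was used in counting is not given in the sources used here. In RefSeq's GRCz12tu annotation, a later assembly than the GRCz11 used for the counts, *pax6a* overlaps *dnajc24*, *olig3* overlaps *nrxn1b*, *pax7b* overlaps *kcnab2b* and *irx3b* overlaps *mphosph6* and *dus2*. *dnajc24* had log2 fold changes of 0.17 and 0.28 against wild type in the *tbx16* and *msgn1* lines and was not called (edgeR adjusted p = 0.586 and 0.592), while *pax6a* was 4.37-fold lower in the *tbx16* line. *nrxn1b* stayed under 0.75 CPM and *kcnab2b* under 0.29 CPM in every sample. In the *tbx16* line *olig3* was itself at only 2.35 to 3.13 CPM and *pax7b* at 0.395 to 0.955 CPM. The part of *dnajc24*, *nrxn1b* and *kcnab2b* in the *pax6a*, *olig3* and *pax7b* results was not tested. *mphosph6* was lower in the *tbx16* line by a log2 fold change of −0.43 (SE 0.10, edgeR adjusted p = 0.0114), in the same direction as *irx3b*, and its part in the *irx3b* result was not tested. *dus2*, which also overlaps *irx5b*, was at 57.2 to 63.6 CPM in wild type. Its log2 fold changes were −0.22 and 0.13 in the *tbx16* and *msgn1* lines, neither called. Between the lines it was called, at −0.35 (SE 0.12, edgeR adjusted p = 0.04). Its part in the *irx3b* and *irx5b* results was not tested.

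Iroquois genes that lie near each other can be set side by side, *irx3a* with *irx5a* and *irx3b* with *irx5b*. *irx3a* lies next to *irx5a* in that annotation. *irx5a*, chosen after its values were seen, was lower in the *tbx16* line by a log2 fold change of −0.61 (SE 0.16, edgeR adjusted p = 0.0143), where *irx3a* was not called. *irx5b*, an Iroquois gene near *irx3b*, followed the same order of genotypes as *irx3b*. It was at 5.29 to 6.91 CPM in wild type, 1.73 to 2.00 CPM in the *tbx16* line and 11.1 to 15.5 CPM in the *msgn1* line, with log2 fold changes of −1.72 (SE 0.19, edgeR adjusted p = 0.000154) and 1.11 (SE 0.18, edgeR adjusted p = 0.0244).

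The wider neural gene lists are read against the share of all tested genes called, 15.7% lower and 15.0% higher in the *tbx16* line and 0.497% lower and 0.357% higher in the *msgn1* line. These lists were chosen with earlier results of these data known, so setting them beside that share is a description and not a test. Among 18 tested other genes of dorsal progenitors, 7 were lower and 2 higher in the *tbx16* line, with a median log2 fold change of −0.18. *ascl1a*, a proneural gene, fell there by a log2 fold change of −3.48 (SE 0.36, edgeR adjusted p = 0.000105), from 2.94 to 4.63 CPM in wild type to 0.178 to 0.417 CPM. Its paralog *ascl1b* rose by 2.21 (SE 0.32, edgeR adjusted p = 0.000743), to 6.84 to 7.96 CPM from 1.30 to 1.88 CPM. In the *msgn1* line 0 of the 18 genes were called by edgeR. At an unadjusted p under 0.05 it gave 7 lower and 0 higher, and DESeq2 called 3 lower and 0 higher.

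Of 19 tested other genes, in a broad list named for intermediate and ventral progenitors, 12 were lower and 1 higher in the *tbx16* line. Their median log2 fold change was −0.86. Not every gene of the list marks such a domain. The widest fall was that of *nkx1.2la*, a homeobox gene of the caudal neural plate. It was at 50.2 to 54.3 CPM in wild type, 1.30 to 2.13 CPM in the *tbx16* line and 29.0 to 37.7 CPM in the *msgn1* line. Its log2 fold change in the *tbx16* line was −5.01 (SE 0.20, edgeR adjusted p = 1.01e-06). *gli1*, a target gene and effector of Hedgehog signalling, was the only gene of the list called higher there, by 0.99 (SE 0.18, edgeR adjusted p = 0.00254), from 63.5 to 76.6 CPM to 112 to 176 CPM. By edgeR *irx5b* was the only call of this list in the *msgn1* line, where an unadjusted p under 0.05 gave 4 higher and 2 lower and DESeq2 called 2 higher and 2 lower.

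Of 24 tested genes of spinal neuron subtypes, 14 were lower and 3 higher in the *tbx16* line (median log2 fold change −1.33), and 1 was called, higher, in the *msgn1* line by edgeR. DESeq2 called 0 higher and 3 lower there, and an unadjusted p under 0.05 gave 4 higher and 5 lower. *gata3* and *gata2a* had the highest wild-type means of the list, 69.7 and 64.0 CPM. The tissue was not sorted, and whether the reads of these genes came from neurons was not tested. *isl1*, a LIM homeobox gene of motor and primary sensory neurons, was at 17.0 to 19.8 CPM in wild type and 2.35 to 3.62 CPM in the *tbx16* line. Its log2 fold change was −2.71 (SE 0.18, edgeR adjusted p = 8.93e-06). *lhx5*, a LIM homeobox gene of interneurons, rose by 2.67 (SE 0.37, edgeR adjusted p = 0.000549). Of 16 panneural progenitor markers, 12 were lower and 1, the radial glial filament gene *gfap*, was higher in the *tbx16* line, with a median of −1.76. *sox1a* fell there by −2.75 (SE 0.32, edgeR adjusted p = 0.000217).

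Of the 16 panneural markers 3 were lower and 1 higher in the *msgn1* line by edgeR, with a median log2 fold change of −0.37. At an unadjusted p under 0.05 8 were lower and 2 higher. *sox21a*, a SoxB gene, rose from 4.40 to 5.54 CPM in wild type to 13.8 to 17.7 CPM in the *msgn1* line (log2 fold change 1.61, SE 0.19, edgeR adjusted p = 0.00552). Its paralog *sox21b* went the other way, from 8.62 to 10.6 CPM to 3.29 to 3.65 CPM (log2 fold change −1.46, SE 0.17, edgeR adjusted p = 0.00503). This pair of genes thus changed in opposite directions within the *msgn1* line.

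**Figure D4:**
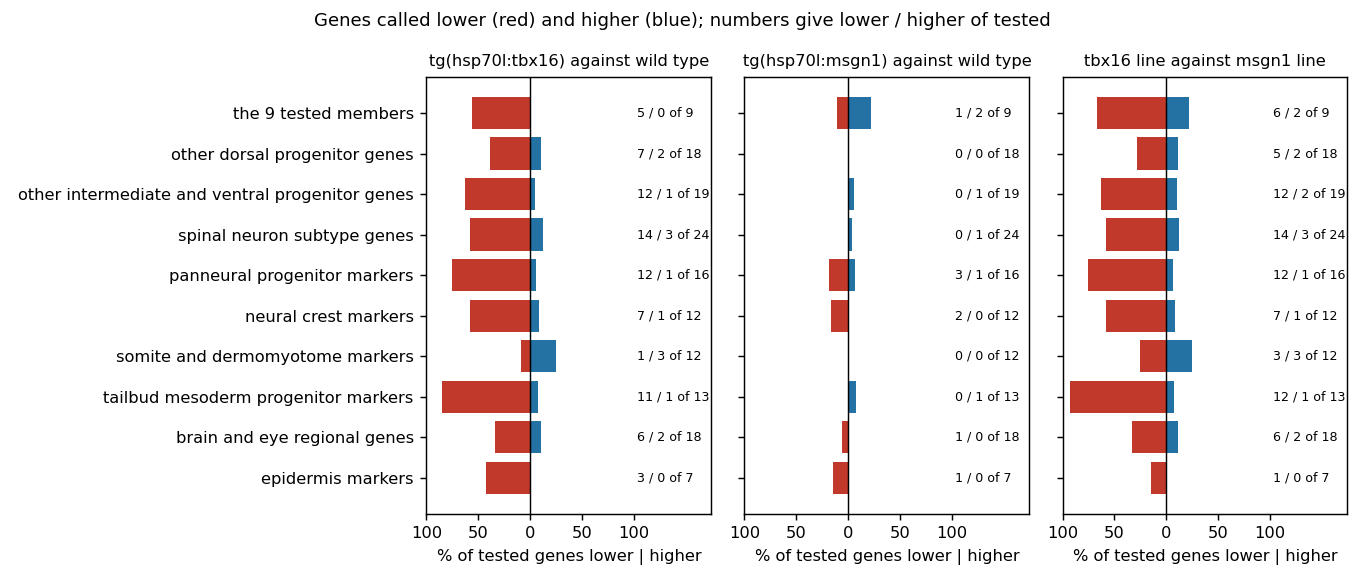
Percent of tested genes called lower (left, red) and higher (right, blue) by edgeR in each list and comparison, with the numbers lower / higher of tested printed beside the bars. The *tbx16* line against wild type has 5 of 9 tested members and 12 of 16 panneural markers lower, and the *msgn1* line against wild type has 3 of 9 members and 4 of 16 panneural markers called.

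Several members are also made outside the neural tube, and the tissue was not sorted. In such bulk samples fewer cells of a type and less RNA per cell cannot be told apart. Summed over 16 panneural markers the level was 2325 to 2388 CPM in wild type, 1232 to 1649 CPM in the *tbx16* line and 2392 to 2520 CPM in the *msgn1* line, with no marker at 0. Without *cdh2*, left out after its values were seen, the sums were 1377 to 1384, 455 to 675 and 1140 to 1227 CPM, so the *msgn1* line then lay below wild type. The largest parts of the full sum were *cdh2*, *hes6* and *notch3*, at means of 977, 428 and 349 CPM in wild type. The study lists *hes6* and *notch3* among genes lowered as mesodermal progenitors differentiate, so the sum does not measure neural cells alone. That list keeps only genes that the study also found lowered by *tbx16* or *msgn1* in these same samples. The fall of the panneural markers went with that of 5 members in the *tbx16* line, and their part in it was not tested. Summed over 12 neural crest markers the level was 704 to 766, 352 to 436 and 528 to 555 CPM in wild type, the *tbx16* line and the *msgn1* line, again with no marker at 0. Of the 12, 7 were lower and 1 higher in the *tbx16* line by edgeR. *snai1b* was the gene called higher, by a log2 fold change of 0.98 (SE 0.11, edgeR adjusted p = 0.000127). In the *msgn1* line edgeR called 2 lower and 0 higher. An unadjusted p under 0.05 gave 4 lower and 1 higher in that line, and DESeq2 likewise called 4 lower and 1 higher. *foxd3*, a crest transcription factor, fell by a log2 fold change of −2.97 in the *tbx16* line (SE 0.18, edgeR adjusted p = 4.32e-06). The study also lists *foxd3* among genes lowered as mesodermal progenitors differentiate. The largest parts of the crest sum were *tfap2c*, *tfap2a* and *snai2*, at means of 296, 188 and 135 CPM in wild type. *sox10* and *crestin* were at means of 2.14 and 7.57 CPM there, so the sum says little about them. In the *tbx16* line *sox10* was not called (log2 fold change −1.71, edgeR adjusted p = 0.0788) and *crestin* was lower (−2.31, edgeR adjusted p = 0.0065). Whether the reads of the summed genes came from neural crest was not tested. The part of neural crest in the results for *pax3a* and *pax7b* was not tested.

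Somite and dermomyotome markers cover a further tissue with *pax3a* and *pax7b*. They summed to 1397 to 1546 CPM in wild type, 1054 to 1859 CPM in the *tbx16* line and 1666 to 1994 CPM in the *msgn1* line. Of 12 tested, 3 were higher and 1 lower in the *tbx16* line. In the *msgn1* line 0 were called by edgeR, with 3 higher and 0 lower at an unadjusted p under 0.05 and 1 higher by DESeq2. *meox2a* was the only one of 13 listed somite markers at 0 in all samples of a genotype, the *tbx16* line. Their part in the *pax3a* and *pax7b* results was not tested. The study also lists *pax3a* itself among genes lowered as mesodermal progenitors differentiate, and as lowered by *tbx16* but not by *msgn1*. The second statement rests on these same samples and is not separate evidence. The part of mesodermal progenitors in the *pax3a* result was not tested either.

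Brain and eye genes bear on *pax6a*, *pax6b* and *dbx1a*, which are also made in the head. Their 21 genes summed to 102 to 114 CPM in wild type, 105 to 142 CPM in the *tbx16* line and 69.5 to 86.9 CPM in the *msgn1* line, with none at 0 in all samples of a genotype. Without *mafba*, left out after its values were seen, the sums were 90.9 to 105, 28.9 to 58.6 and 64.8 to 82.6 CPM, below wild type in both lines. The largest parts of that sum were *emx2*, *emx3*, *gbx2* and *gbx1*, at means of 39.0, 22.6, 15.5 and 10.1 CPM in wild type. The sum therefore says little about the other genes of the list. In the *tbx16* line 6 of 18 tested were lower and 2 higher. *mafba*, a hindbrain gene, rose there by a log2 fold change of 3.07 (SE 0.19, edgeR adjusted p = 5.7e-06), and *emx2* fell by −2.55 (SE 0.24, edgeR adjusted p = 6.67e-05). Whether the reads of these genes came from head tissue was not tested. By edgeR *emx3* was the only call of the *msgn1* line, lower by −0.98 (SE 0.19, edgeR adjusted p = 0.0484). DESeq2 called 3 lower there, and an unadjusted p under 0.05 gave 6 lower and 1 higher.

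Of that list 10 genes of forebrain and eye, such as *otx2a*, *six3b*, *rx3* and *foxg1a*, were looked at apart after their values were seen. *emx1*, *emx2*, *emx3* and *vax1* were not among the 10. Their log2 fold changes in the *tbx16* line were −3.16, −2.55, −1.86 and 3.00. The sum of the 10 genes was 8.21, 10.3 and 7.48 CPM in wild type, 33.0, 4.16 and 5.53 CPM in the *tbx16* line and 6.85, 7.46 and 34.5 CPM in the *msgn1* line. Replicate 1 of the *tbx16* line and replicate 3 of the *msgn1* line thus stood apart from all other samples. The first is also the *tbx16*-line sample with the highest *pax6a*, and without it the *pax6a* log2 fold change against wild type was −2.97. Without *msgn1*-line replicate 3 the *pax6b* log2 fold change was −2.04, and the call held (edgeR adjusted p = 0.0138). Leaving out 1 sample cannot separate head tissue from replicate spread, and the part of head tissue in the *pax6a*, *pax6b* and *dbx1a* values was not tested.

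Epidermis covers the cut tissue. Its 7 markers summed to 3282 to 11455 CPM in wild type, 5244 to 8847 CPM in the *tbx16* line and 3519 to 11400 CPM in the *msgn1* line, so the spread within a genotype was wide and the genotypes overlapped. Of the 7, 3 were lower in the *tbx16* line and 1, *tp63*, in the *msgn1* line, and 0 were higher in either by edgeR, by an unadjusted p under 0.05 or by DESeq2. The mesodermal progenitor markers summed to 4230 to 4742 CPM in wild type, 2120 to 2741 CPM in the *tbx16* line and 5123 to 5621 CPM in the *msgn1* line. This sum includes reads of both transgenes. Without *tbx16* and *msgn1* it was 3157 to 3489, 934 to 1593 and 3343 to 3354 CPM, so wild type and the *msgn1* line overlapped. Of all 13 genes 11 were lower in the *tbx16* line and 1, *tbx16* itself, was higher, so a lower level there was not particular to neural genes.

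The samples varied together in some members and not in others. Over the 9 samples the log2 CPM of *pax7b* and *olig3* had a Pearson r of 0.93, the highest of the 36 member pairs, and that of *pax6b* and *olig2* an r of −0.86, the lowest. The points share genotype means, so these values describe the ordering of the genotypes. Among genes outside the list with a mean of at least 100 counts, those most like each member had r of 0.95 to 0.99 over the 9 samples. For *olig3* they were *CU459056.1* and *cdaa*, for *pax3a* *txlnba* and *znf76*, for *pax7b* *pfkfb1* and *fbxl14b*, and for *pax6a* *tet3* and *dao.1*. For *pax6b* they were *c1qtnf12* and *sox13*, for *dbx1a* *clasrp* and *mis12*, for *irx3a* *gadd45bb* and *cflara*, for *nkx6.1* *si:ch211-170d8.2* and *cxcl12a*, and for *olig2* *rab3db* and *cyth1b*. *sox13*, for example, had log2 fold changes of −0.53 in the *tbx16* line and −1.80 in the *msgn1* line, beside −0.33 and −2.00 for *pax6b*.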

How the data were processed

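RNA from 9 tailbud samples was sequenced, and per the labels and the study's methods the authors trimmed reads with Trim Galore 0.5.0, aligned them to GRCz11 with HISAT2 2.1.0 and quantified genes with StringTie. The authors deposited whole-number counts per gene without scaling. The annotation release, the strand setting and the step to whole counts are not given in the sources used here. The 64 lines with a blank name, 0.082 to 0.101% of counts, were left out, and of lines sharing a name the one with most counts stood for a listed gene.

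All 9 samples were fitted with edgeR 4.0.16 in R 4.3.3 (1 coefficient per genotype, TMM, filterByExpr, quasi-likelihood F-test), and 19914 genes were tested with Benjamini-Hochberg adjustment. The alternatives were RLE size factors, library size alone, DESeq2 1.42.0, no filter, a minimum of 10 counts in each sample, fitting the 2 compared groups alone, a block for replicate number, and each sample left out. A gene with 100 counts has a counting error of about 10.0%. Each edgeR SE was derived from the log2 fold change and the F statistic of its test, and the 95% intervals were built from that SE. The intervals are for each gene alone, without adjustment for the number of genes tested. An interval can therefore leave out 0 where a gene was not called. Correlations used log2(CPM + 0.5).

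The members and gene lists were chosen with earlier results of these data known. Named besides members were their paralogs, in each list the called gene with the largest rise and the largest fall per comparison at a mean of at least 100 counts, and the 2 genes most correlated with each member. The fits were tested on simulated data. Names and neighbours came from RefSeq (GRCz12tu).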

Additional observations from a re-analysis of the deposited data

How the results depend on the processing

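Scaling by library size alone lowered the number of called genes from 5 to 3 in the *tbx16* line and from 3 to 1 in the *msgn1* line, against wild type. It moved the median log2 fold change of all genes to 0.18 and −0.20 in these comparisons and to 0.38 between the lines. Leaving out samples gave 3 to 5, 1 to 3 and 7 to 8 called genes in the 3 comparisons. The sign of *dbx1a* in the *tbx16* line was reversed with library size alone (0.13), with at least 10 counts in every sample (0.0035) and with 4 of the 9 single samples left out, over a range of −0.17 to 0.13 for all 9. That of *nkx6.1* between the lines was reversed with library size alone (0.087). None of these reversed values was called, and the cause was not tested.

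*pax3a*, *olig3* and *pax6a* in the *tbx16* line and *pax6b* in the *msgn1* line were called in all 8 alternatives and with each of the 9 samples left out. With only the groups compared, *pax6b* was also called in the *tbx16* line (log2 fold change −0.35, edgeR adjusted p = 0.04998). Samples with the same replicate number had correlations of −0.21 to 0.55 after the genotype means were removed. Between the *msgn1* line and its sibling wild types they were 0.165, −0.00143 and 0.55 for replicates 1, 2 and 3. Samples of those groups with different numbers had −0.505 to 0.469. The numbers were not taken as a pairing in the main fit, and whether samples of the same number shared a clutch was not tested. With the replicate number as a block, 4 members were called in the *tbx16* line and 2 in the *msgn1* line, both with all samples and with only the groups compared. The block lost *pax7b* in the *tbx16* line (edgeR adjusted p = 0.0582 and 0.0968) and *olig3* in the *msgn1* line (0.0867 and 0.0974). Between the lines the block gave 7 with all samples and 6 with only the groups compared. Over all genes the *msgn1* line had 170 calls against wild type, 703 by DESeq2, 85 and 96 with the block, and 37 to 1198 with samples left out. The *tbx16* line had 6120 calls, and 3968 without wild-type replicate 1. Between the lines 7637 calls became 4093 with the block on only the groups compared. Depth limits *pax7b* and the paralogs *dbx1b*, *pax3b* and *olig1*, which had 18, 6, 0 and 0 counts in their lowest samples.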
